A study of Mus musculus with 3 samples.

Results

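Skeletal muscle that is rebuilt after injury passes through the programme of the embryo, and 9 genes of that programme were followed here through mouse skin wounds: *Actc1*, *Myh3*, *Myh8*, *Myl4*, *Myog*, *Mymk*, *Chrna1*, *Chrng* and *Ncam1*. They were taken by symbol, 9 of the 32285 genes in the count matrices, and were picked from the rise of *Actc1* on Day 7, so the levels of *Actc1* by day are given as a description and not as a finding. The other 8 members were counted as a set beside it. The name of the set, embryonic muscle genes of regenerating fibres, describes the genes, and no measurement here showed a fibre regenerating.

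Full-thickness wounds were punched into the shaved dorsal skin of C57BL/6J mice, which the methods describe as age-matched males of 7 to 12 weeks. The labels name no transgene and no treatment beside the wound. The groups were Day 3, Day 7 and Day 14 after wounding, with 1 fresh frozen section each and no unwounded section. RNA was captured on Visium slides, on which each spot carries a positional barcode and can hold several cells, and molecules were counted by unique molecular identifiers (UMIs). All 3 slides used the same 4992 spot barcodes, so a shared barcode is a shared position and not a shared cell.

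The position lists marked 664, 549 and 697 spots as under tissue on Days 3, 7 and 14, with 1772259, 4442962 and 4611723 UMIs and a median of 1513, 6687 and 4827 UMIs per spot. This mark follows a region selected on the image, and the unmarked spots held 1703210, 6457066 and 4715272 further UMIs, with much of the adult muscle of the section among them. Levels are therefore given for marked and unmarked spots separately, as counts per 1000000 UMIs of all genes in the same spots (CPM). Every interval is a 95% interval for counting error alone. With 1 section per day there is no replicate and no test between days, and day, animal, section and the muscle caught in it cannot be told apart. The muscle did differ: the slow-fibre myosin gene *Myh7* had 321, 2 and 86 UMIs under tissue by day and 562, 2 and 227 in unmarked spots. Pooled spots also cannot tell fewer cells of a type from less RNA per cell.

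Muscle is formed by precursor cells that fuse into fibres. While they do so they express cardiac actin, embryonic and perinatal myosin heavy chains, an atrial and embryonic light chain and the fetal form of the acetylcholine receptor, which adult fast fibres replace with their own isoforms. The same genes return when injured fibres are rebuilt, and some of them, such as the receptor subunits and *Ncam1*, also when fibres lose their nerve.

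Myogenic factors such as Myog bind E-boxes (CANNTG), and serum response factor binds the CArG box found before many actin genes. Promoters of 7 of the 9 genes were in the RefSeq table used here (build GRCm38.p6), in a window of 250 bases before and 50 bases from the transcription start. 4 are shown. That of *Actc1* was taken because its levels differed from those of the others between marked and unmarked spots in the results that follow. Those of *Myog*, *Chrna1* and *Chrng* were taken as members whose windows hold 2 or more E-boxes. *Myh8*, which also holds 2, is not printed. Each is printed 5′ to 3′ and leaves out the 15 bases next to the start, with E-boxes and the CArG box in capitals.

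Actc1, chr2:114052891-114053125, minus strand: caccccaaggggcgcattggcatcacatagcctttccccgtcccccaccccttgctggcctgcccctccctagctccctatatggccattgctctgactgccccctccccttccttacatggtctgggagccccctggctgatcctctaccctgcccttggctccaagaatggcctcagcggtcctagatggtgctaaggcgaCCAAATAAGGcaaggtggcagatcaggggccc
Myog, chr1:134289754-134289988, plus strand: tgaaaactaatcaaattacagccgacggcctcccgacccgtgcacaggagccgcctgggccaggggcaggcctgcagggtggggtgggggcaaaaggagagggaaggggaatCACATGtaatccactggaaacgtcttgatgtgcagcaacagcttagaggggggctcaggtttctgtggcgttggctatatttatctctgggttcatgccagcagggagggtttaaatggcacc
Chrna1, chr2:73580354-73580588, minus strand: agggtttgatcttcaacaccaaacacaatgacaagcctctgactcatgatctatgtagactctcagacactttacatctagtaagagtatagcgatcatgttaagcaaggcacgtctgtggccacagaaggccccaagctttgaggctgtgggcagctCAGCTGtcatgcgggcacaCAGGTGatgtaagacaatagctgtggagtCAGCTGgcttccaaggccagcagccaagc
Chrng, chr1:87205561-87205795, plus strand: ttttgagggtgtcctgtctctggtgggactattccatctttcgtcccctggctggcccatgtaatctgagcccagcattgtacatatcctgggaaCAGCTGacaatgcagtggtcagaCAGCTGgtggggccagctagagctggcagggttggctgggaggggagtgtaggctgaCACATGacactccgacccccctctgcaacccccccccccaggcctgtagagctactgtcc

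The *Actc1* window held 1 CArG box, which begins 47 bases before the start, and 1 E-box, which lies after the start and is not printed. A CArG box on either strand was found in 1.63% of all 32851 promoters of the table. *Chrna1* and *Chrng* each held 3 E-boxes, of which 2 read CAGCTG, and *Myog* held 2, of which the one nearest the start is not printed. At least 1 CANNTG was present in 72.3% of all promoters, 2 or more in 39.6%, and 2 or more copies of CAGCTG, which is itself a CANNTG, in 1.90%. *Myh3*, *Myh8* and *Myl4* held 1, 2 and 0 E-boxes and no CArG box. These are matches of letters, read in the RefSeq window only. In the GENCODE annotation of the same build the *Actc1* gene spans chr2:114047282-114053548 and *Chrng* chr1:87204657-87212694, so both printed stretches fall inside the annotated gene, whereas those of *Myog* (chr1:134289989-134292548) and *Chrna1* (chr2:73563215-73580338) end at or just before it.

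*Actc1* encodes cardiac actin, the main sarcomeric actin of embryonic muscle and of the adult heart. Under tissue it was counted 20 times on Day 3, 2729 times on Day 7 and 840 times on Day 14, or 11.3 (6.89 to 17.4), 614 (591 to 638) and 182 (170.0 to 195) CPM. In unmarked spots it was counted 44, 9201 and 2322 times, or 25.8, 1425 and 492 CPM. *Actc1* was thus lowest on Day 3 in both areas, highest on Day 7, and on Day 14 between the other sections, with no overlap of the intervals. The Day 7 level under tissue was 54.4 times that of Day 3 (log2 ratio 5.77, 5.14 to 6.48), and from Day 7 to Day 14 it fell by 1.75 on the log2 scale (1.64 to 1.87).

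The adult actin gene *Acta1* did not follow. Its level under tissue was 9867, 11209 and 14162 CPM, so that *Actc1* stood at 1.14, 54.8 and 12.9 UMIs per 1000 *Acta1* UMIs. *Ckm*, the creatine kinase of adult muscle, was at 5411, 8633 and 8961 CPM under tissue, and at 11644, 17423 and 17406 CPM in unmarked spots. Set against *Ckm* in place of all UMIs, the Day 7 rise of *Actc1* had a log2 ratio of 5.09. The 2 actins are close in their coding sequence, and how reads common to both were counted is not given in the sources used here.

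**Figure D1:**
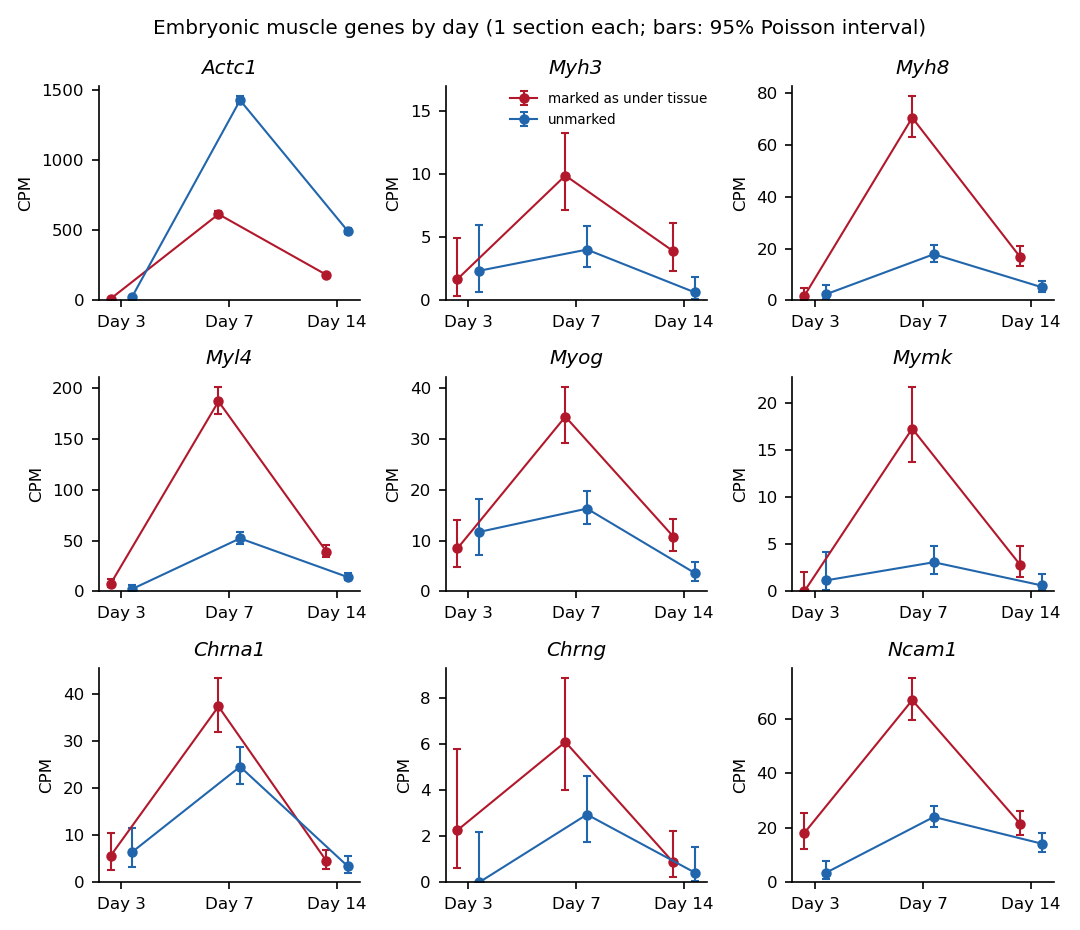
Level of each of the 9 genes in CPM (vertical axes, linear, each with its own range) on Day 3, Day 7 and Day 14 (horizontal axes, 1 section each), in spots marked as under tissue (red) and in unmarked spots (blue), with bars for the 95% Poisson interval. All 9 genes were highest on Day 7 in both areas, and on Day 7 *Actc1* alone was higher in unmarked spots.

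*Myh3* and *Myh8* encode the embryonic and the perinatal myosin heavy chain. *Myh3* had 3, 44 and 18 UMIs under tissue on Days 3, 7 and 14 (1.69, 9.90 and 3.90 CPM), and *Myh8* had 3, 313 and 77 (1.69, 70.4 and 16.7 CPM). Against the sum of the adult fast chains *Myh1*, *Myh2* and *Myh4*, *Myh8* stood at 0.323 UMIs per 1000 on Day 3, 8.88 (7.92 to 9.92) on Day 7 and 2.12 on Day 14. The Day 3 ratios rest on 3 UMIs each. Between Days 3 and 7 the log2 level of *Myh3* rose by 2.55 (0.91 to 4.88) and that of *Myh8* by 5.38 (3.82 to 7.66). Of the adult chains, *Myh4* and *Myh1* had ratios of 0.80 and 0.15, and *Myh2*, the chain of the intermediate fast fibres, of -3.54.

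*Myl4*, the atrial and embryonic essential light chain, had the most UMIs of the 8. It was counted 13, 833 and 181 times under tissue (7.34, 187 and 39.2 CPM) and 4, 337 and 66 times in unmarked spots (2.35, 52.2 and 14.0 CPM). The Day 7 level under tissue was 25.6 times that of Day 3. Its adult counterpart *Myl1* had a log2 ratio of 0.30, and *Myl4* went from 2.64 to 54.5 and then 9.0 UMIs per 1000 *Myl1* UMIs.

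*Myog* encodes myogenin, the transcription factor that starts terminal differentiation, and *Mymk* encodes myomaker, the membrane protein that precursors need for fusion. *Myog* had 15, 153 and 50 UMIs under tissue (8.46, 34.4 and 10.8 CPM), with a log2 ratio of 2.02 (1.26 to 2.90) for Day 7 over Day 3. *Mymk* had 0, 77 and 13 UMIs there (0, 17.3 and 2.82 CPM). Against a floor of 3 UMIs over the Day 3 area, the Day 7 level of *Mymk* was at least 10.2-fold higher. Unmarked spots of Day 3 did hold both, with 20 UMIs of *Myog*, 7 of them in a single spot, and 2 of *Mymk*.

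*Chrna1* encodes the alpha subunit of the muscle acetylcholine receptor and *Chrng* the gamma subunit of its fetal form. *Chrna1* had 10, 166 and 21 UMIs under tissue (5.64, 37.4 and 4.55 CPM), and its level on Day 14 lay within the Day 3 interval (2.71 to 10.4). *Chrng* had 4, 27 and 4 UMIs (2.26, 6.08 and 0.867 CPM), and its log2 ratio of 1.43 for Day 7 over Day 3 had an interval that held 0 (-0.09 to 3.40). *Chrne*, the adult subunit that takes the place of *Chrng*, was also sparse, with 0, 24 and 3 UMIs under tissue, so the fetal and adult subunits were both highest in the Day 7 section.

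*Ncam1* encodes the neural cell adhesion molecule, which is found on muscle precursors and denervated fibres and also on nerve. It had 32, 297 and 99 UMIs under tissue (18.1, 66.8 and 21.5 CPM) and 6, 155 and 67 in unmarked spots (3.52, 24.0 and 14.2 CPM). Its log2 ratio of 1.89 (1.36 to 2.46) for Day 7 over Day 3 was the smallest of the members called. On Day 3 it made up 32 of the 80 UMIs of the 8 genes under tissue.

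A gene was called higher or lower where its level differed by 2-fold or more, the interval of the ratio left out 1 and the sections together held at least 10 UMIs. By this rule 8 of the 9 members were higher on Day 7 than on Day 3 under tissue, all but *Chrng*, and 8.26% of the 13689 genes tested were. The median log2 ratio was 2.73 over the members and 0.04 over all genes tested. Over the whole slide 9 of 9 were higher, beside 7.47% of all genes. In unmarked spots alone 6 of 9 were higher, beside 8.86% of all genes tested there. From Day 7 to Day 14 under tissue 9 of 9 were lower, beside 8.20% of 14400 genes, with a median log2 ratio of -2.08 over the members and 0.13 over all genes. As the members were chosen with the *Actc1* rise known, these counts describe the set. Summed, the 8 genes other than *Actc1* stood at 45.1 (35.8 to 56.2), 429.9 (411 to 449.6) and 100.4 (91.5 to 110.0) CPM under tissue, a 9.52-fold difference between Days 7 and 3. Set against *Ckm* the log2 ratio of that sum was 2.58 rather than 3.25, and without the marked spots that held 10 or more of these UMIs, described further on, it was 2.54.

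The wider myogenic programme, a list of 20 further genes, had 17 with enough UMIs for Day 7 over Day 3, of which 7 were higher and 1 lower, with a median log2 ratio of 1.17 (0.55 with the genes at 0 on Day 3 set to their floor). *Mymx*, whose small membrane protein acts with myomaker in fusion, had 0, 59 and 3 UMIs under tissue. *Tnnt2*, the cardiac and embryonic troponin T, had 1, 91 and 42. *Chrnd* and *Chrnb1*, further subunits of the receptor, had 0, 11 and 1 and 5, 33 and 18. The call of *Chrnd* rests on its count of 0 on Day 3. Against the floor of 3 UMIs it was at least 1.46-fold higher, which is under the 2-fold limit. *Itga7*, a laminin receptor of muscle, *Ankrd1*, a stress-responsive sarcomere gene, and *Chrne* were the others called higher. The gene called lower was *Csrp3*, a Z-disc protein rich in slow fibres, with 208, 160 and 114 UMIs. Genes of the precursor cells themselves were hardly captured. *Pax7*, the satellite cell factor, had 2, 3 and 1 UMIs under tissue, *Myf5* 1, 4 and 3, and *Myod1* 3, 17 and 22. From Day 7 to Day 14, 0 of 17 were higher and 5 lower.

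Lists of other cell types were read the same way. The wound bed list (*Postn*, *Tnc*, *Cthrc1*, *Lrrc15* and *Adam12*) moved with the members under tissue, with 4 of 5 genes higher on Day 7 than on Day 3 (median log2 ratio 3.01) and 5 of 5 lower on Day 14 than on Day 7 (-2.37). Of 8 smooth muscle genes 3 were higher and then 3 lower, and of 8 nerve genes 2 were higher and then 3 lower and 1 higher. Macrophage genes gave 0 of 8 higher and 2 lower and then 7 lower, and epidermis genes 6 of 10 lower and then 8 higher. White fat genes gave 1 of 6 higher (median log2 ratio 0.57) and then 6 of 6 lower (-2.34). Brown fat genes gave 1 of 7 higher and 1 lower in both comparisons. Among them *Ucp1* had 0, 430 and 6 UMIs under tissue and 0, 2007 and 3 in unmarked spots, so the fat in the sections differed too. The part of these cells in the result was not tested.

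Other muscle lists gave other counts. The adult fast-fibre list had 1 of 16 genes higher (*Pvalb*) and 1 lower (*Myh2*) on Day 7 than on Day 3, with a median log2 ratio of 0.32. The slow-fibre list had 6 of 8 tested genes lower and 1 higher, *Casq2*, the cardiac and slow calsequestrin. Of 8 tested genes of a denervation list 4 were higher, but *Chrna1*, *Ncam1* and *Chrne* among them are genes already described here and the other was *Runx1*. Genes that mark heart muscle were near 0, as *Nppa*, *Nppb*, *Myl7*, *Mybpc3* and *Myh6* had at most 6 UMIs in either area of any section, and *Tnni3* had 9, 24 and 38 under tissue.

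*Actc1* and the other 8 genes were placed differently between marked and unmarked spots. Among marked *Ckm* spots of Day 7, described further on, the other 8 were higher in those rich in *Actc1* (log2 ratio 1.24, 1.07 to 1.40). On Day 7 *Actc1* was 2.32 times as high in unmarked as in marked spots (log2 ratio 1.21, 1.15 to 1.28), and 77.1% of its UMIs were unmarked. The ratios of *Ckm* and *Acta1* had the same direction, at 1.01 and 1.02, and set against *Ckm* the *Actc1* ratio was 0.20 (0.14 to 0.26). The sum of the other 8 had the opposite direction, with a log2 ratio of -1.57 (-1.68 to -1.45), and each of the 8 was lower in unmarked spots, from -0.60 (-0.92 to -0.28) for *Chrna1* to -2.48 (-3.27 to -1.76) for *Mymk*. On Day 14 the ratio was 1.43 for *Actc1* and -1.26 (-1.51 to -1.01) for the 8, and on Day 3 it was 1.19 (0.40 to 2.04) and -0.59 (-1.13 to -0.07). A single unmarked spot in the first row of the slides stood out in depth, with 12036 UMIs on Day 7 and 10917 on Day 14 where its neighbours had medians of 168 and 182. It held 16 and 3 UMIs of *Actc1*, and without it the unmarked level was 1425 and 493 CPM.

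**Figure D2:**
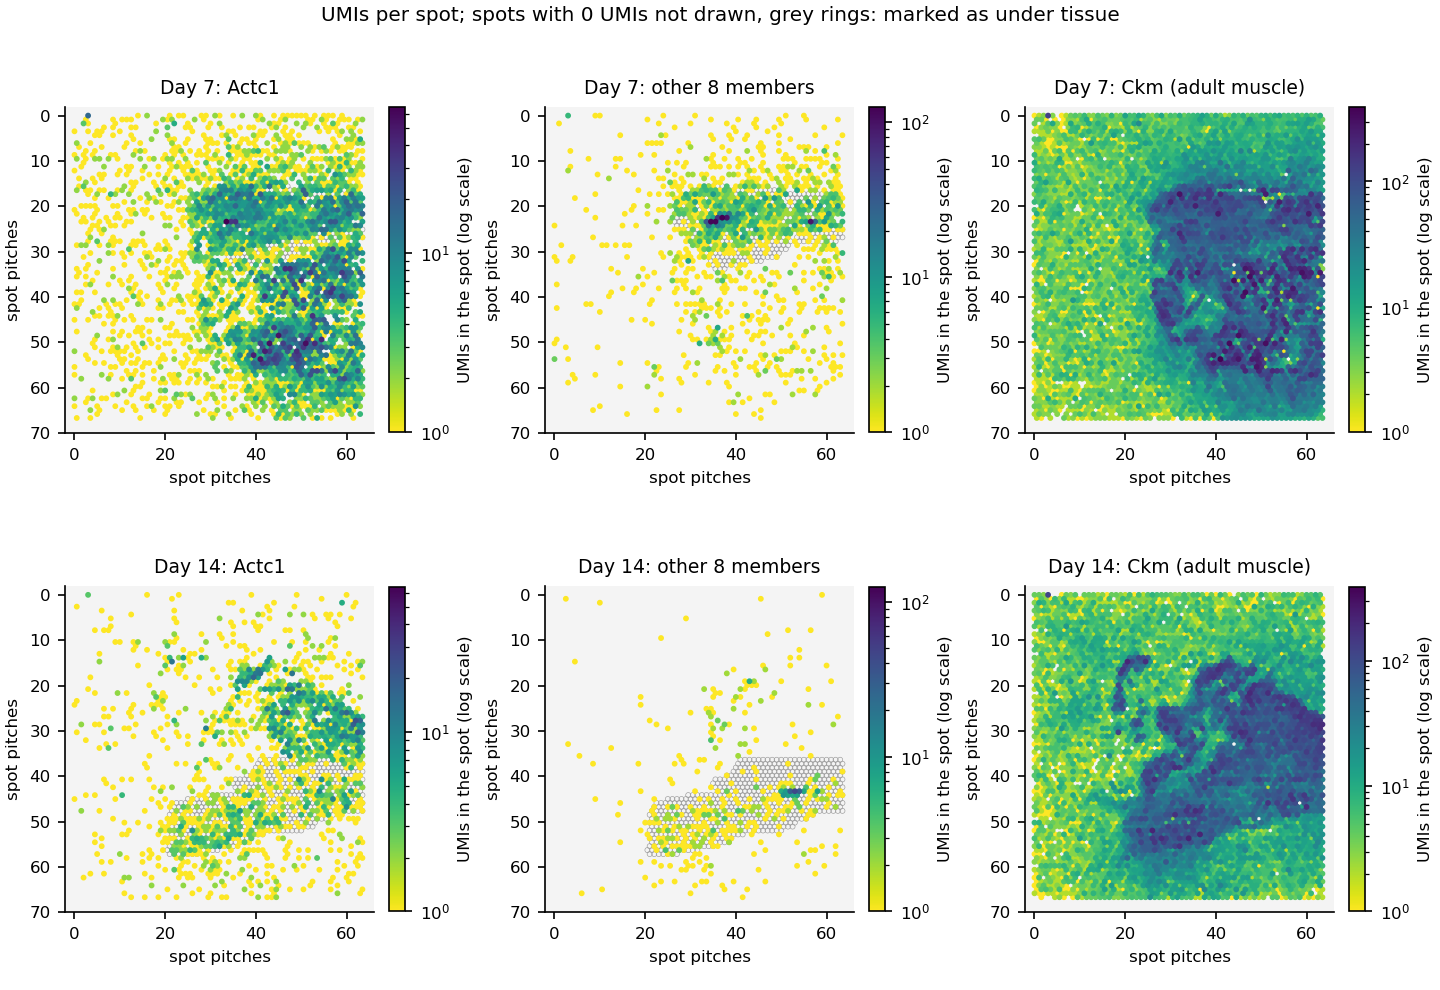
Spot maps of the Day 7 (top) and Day 14 (bottom) slides, with position in spot pitches on both axes and UMIs per spot in colour on a log scale, for *Actc1*, the sum of the other 8 members and *Ckm*. Grey rings are spots marked as under tissue and spots with 0 UMIs are not coloured. *Actc1* follows the unmarked *Ckm*-rich areas, whereas the other 8 members are densest in the marked area with 1 dark cluster of 16 adjacent spots on Day 7.

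Distance from the marked area gave the same order. Per 1000 *Ckm* UMIs on Day 7, *Actc1* stood at 71.1 in marked spots, at 70.9 and 69.7 in unmarked spots up to 5 and from 5 to 10 spot pitches away, and at 87.1 and 92.9 from 10 to 20 and from 20 pitches on. The other 8 stood at 49.8 in marked spots and then at 14.6, 8.60, 6.17 and 5.30. Relative to adult muscle RNA, *Actc1* was thus level out to 10 pitches and higher beyond, while the other 8 were lower at every step, with overlapping intervals only between the last bins. On Day 14 *Actc1* stood at 20.3, 23.0, 30.1, 33.1 and 22.6 and the other 8 at 11.2, 2.77, 2.59, 2.53 and 1.40.

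**Figure D3:**
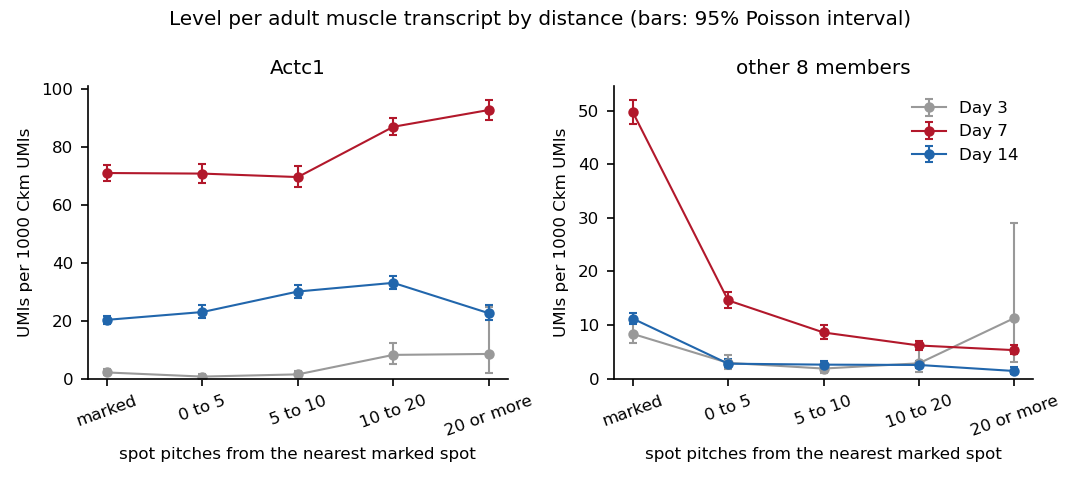
UMIs of *Actc1* (left) and of the other 8 members (right) per 1000 *Ckm* UMIs, against distance from the nearest marked spot in spot pitches, on Day 3 (grey), Day 7 (red) and Day 14 (blue), with 95% Poisson intervals. On Day 7 *Actc1* is at 71.1 in marked spots and 92.9 in the farthest bin, and the other 8 are at 49.8 and 5.30.

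Adult muscle spots were defined by *Ckm*, with at least 5 *Ckm* UMIs per 1000 in spots of at least 200 UMIs. They were 1083 of 1937 such spots on Day 3 (55.9%), 4265 of 4612 on Day 7 (92.5%) and 3968 of 4324 on Day 14 (91.8%). Most such spots of the later slides were thus *Ckm* spots, and overlap with them separates little. Of the 2669 spots with *Actc1* on Day 7, 93.3% were *Ckm* spots, beside 92.5% of all spots, and the share for the single other members went from 76.9% (*Myh3*) and 80.6% (*Ncam1*) to 92.1% (*Chrna1*). By level, *Actc1* was at 1319 CPM in *Ckm* spots and 287 in the others on Day 7 (log2 ratio 2.20, 2.09 to 2.31), whereas the other 8 were at 254 and 289.5 (-0.19, -0.32 to -0.07). The *Actc1* ratio was 1.26 within marked spots, and 0.74 with *Ckm* spots set at 2 per 1000. On Day 14 *Actc1* had a ratio of 1.82 and the other 8 of 0.69 (0.28 to 1.12).

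The difference was graded. From spots with under 5 to spots with 30 or more *Ckm* UMIs per 1000, *Actc1* on Day 7 went from 287 through 639.9, 931 and 2197 to 2625 CPM, and the other 8 from 289.5 through 353, 298 and 112 to 109. On Day 14 *Actc1* went from 105 to 951 CPM over the same bins, and the other 8 were at 46.3, 105, 74.3, 24.6 and 23.0. This held over the whole slide. Within the marked area of Day 7 alone *Actc1* had no such order, at 309, 647, 878, 533 and 703 CPM, the last 2 from 57 and 21 spots, and the other 8 were at 470.2, 475, 373, 159.9 and 224.

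**Figure D4:**
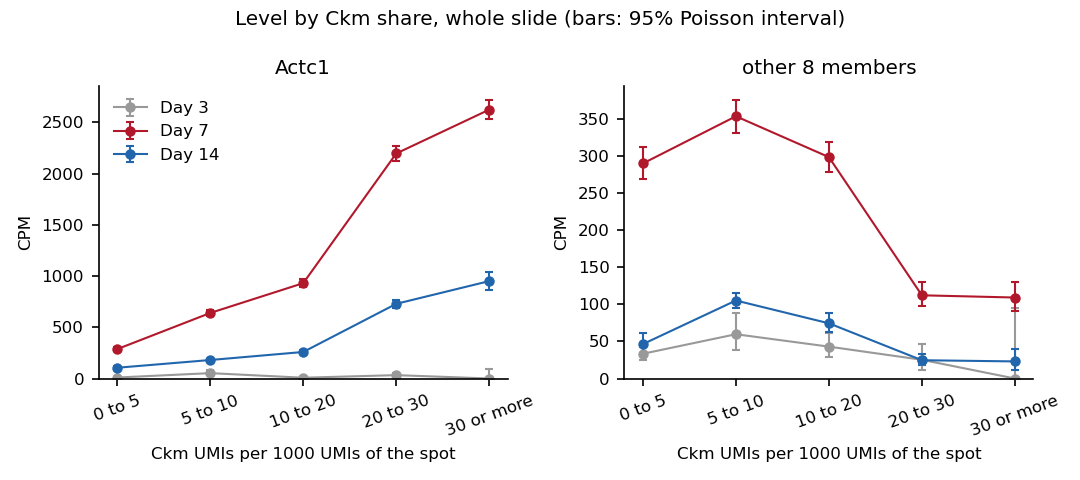
Level in CPM of *Actc1* (left) and of the other 8 members (right) in spots of the whole slide binned by *Ckm* UMIs per 1000 UMIs, on Day 3 (grey), Day 7 (red) and Day 14 (blue), with 95% Poisson intervals. On Day 7 *Actc1* goes from 287 to 2625 CPM and the other 8 members from 289.5 to 109 CPM.

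Spots rich in adult muscle RNA, chosen after the values were seen as those of at least 1000 UMIs with 20 or more *Ckm* UMIs per 1000, numbered 152, 815 and 628 by day. *Actc1* was found in 5.92%, 91.7% and 67.7% of them and the other 8 in 4.61%, 25.6% and 5.89%. On Day 7 the *Actc1* count of such a spot had a median of 5 and reached 57.0 UMIs. Of the 815 spots, 68 were marked.

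Depth differed between sections, so spots were also thinned to 1000 UMIs each. *Actc1* was then present in 2.70% (1.45 to 4.58) of 481 *Ckm* spots on Day 3, in 63.0% (60.8 to 65.3) of 1840 on Day 7 and in 27.1% (25 to 29.2) of 1794 on Day 14, where the unthinned shares were 5.61%, 85.5% and 53.3% at median depths of 1903, 2836 and 3062 UMIs. In the marked spots richest in keratinocyte genes, which should lack the gene, it was present in 2.04%, 48.0% (33.7 to 62.6) and 16.4% (8.49 to 27.5) after thinning, from 49, 50 and 67 spots of median depth 8069, 6636 and 10971. Over all marked spots the thinned shares were 2.35%, 49.9% (45.5 to 54.3) and 20.2% (17.2 to 23.4), close to those of the keratinocyte-rich spots. *Actc1* was thus also counted in many spots of another tissue, and whether it came from RNA spread over the slide was not tested. *Myl4* was in 6.52% of thinned *Ckm* spots and in 12.0% (4.53 to 24.3) of the keratinocyte-rich spots on Day 7, so the share gave no order for it.

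Across the 2657 spots of the Day 7 slide with at least 500 UMIs, the genes whose levels were most like those of *Actc1* were of adult fast muscle. Among 9532 genes, *Acta1* had the highest Pearson correlation (0.419), followed by *Tnnt3* and *Mylpf* (0.416 each), *Pvalb* (0.403), *Tnnc2* and *Tpm1* (0.402 each), *Myl1* (0.397), *Ckm* (0.391), *Myh4* (0.385) and *Aldoa* (0.357). *Myh8* had 0.0234 and *Myl4* -0.0284. These values describe spots of 1 library that share depth and position and are not a test. In the 539 such spots of the marked area the order was another. *Actc1* had 0.247 with *Myl4*, 0.0554 with *Acta1* and -0.0252 with *Ckm*, and was most like *Cfd* (0.370), which encodes the adipocyte product adipsin. The keratin genes *Krt77* (0.293), *Krt10* (0.283) and *Krt14* (0.280) were also among the genes most like *Actc1* there. *Myl4* in turn was most like *Tnni1* (0.432), *Myh8* (0.386) and *Thbs4* (0.380) there, genes named after their values were seen.

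*Ckm* spots rich in *Actc1*, with at least 3 *Actc1* UMIs that made up at least 1 per 1000, numbered 832 on Day 7, of which 97 were marked. The other 8 were at 262 CPM in them and at 249 CPM in the remaining 3433 *Ckm* spots, a log2 ratio of 0.08 (-0.05 to 0.20) that does not separate them. The single genes divided. *Myh8* (0.76, 0.44 to 1.07) and *Myl4* (0.39, 0.19 to 0.59) were higher beside *Actc1*, while *Myog* (-0.74, -1.23 to -0.28) and *Ncam1* (-0.93, -1.35 to -0.53) were lower. The rich and the remaining spots also differed in depth (median 2752 and 477 UMIs) and in *Ckm* (23220 and 13219 CPM). The part of either in these ratios was not tested. The sum depended on the area: among marked spots alone its ratio was 1.24 (1.07 to 1.40), and with *Ckm* spots set at 10 per 1000 it turned to -0.29 (-0.46 to -0.12).

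The other 8 genes were concentrated in few spots. On Day 7 the 5 richest spots of the slide held 19.2% of their UMIs and the 5 richest for *Actc1* held 2.31% of its own. Spots with 10 or more UMIs of the 8 genes, a limit set after the values were seen, numbered 21, of which 20 were marked, and they held 836 UMIs or 29.4% of the slide's total for the 8 genes beside 318 UMIs or 2.67% of *Actc1*. A further 88 spots held 5 to 9. On Day 14, 4 spots passed the limit, with 17.1% of the 8 genes and 0.380% of *Actc1*, and 8 spots held 5 to 9. On Day 3 none did, and the richest spot held 7 UMIs, all *Myog*.

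Most of these spots formed 1 patch on Day 7, of 16 adjacent marked spots in 4 neighbouring rows with 690 UMIs, 24.2% of the slide's total. It held 406 UMIs of *Myl4*, 150 of *Myh8*, 36 of *Myog*, 28 of *Chrna1*, 24 of *Mymk*, 20 of *Myh3*, 19 of *Ncam1*, 7 of *Chrng* and 249 of *Actc1*. The mix of genes changed from spot to spot within it. The richest spot held 125 UMIs of the 8, among them 77 of *Myl4*, 20 of *Myh8*, 11 of *Myog* and 9 of *Mymk*, with 10 of *Actc1* and 53 of *Ckm*. Another held 47 UMIs of *Myh8* and 56 of *Myl4* with 0 of *Myog*, and the spot richest in *Actc1* on the whole slide also belonged to it, with 65 UMIs beside 33 of the 8 genes.

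A second patch of 2 spots lay elsewhere in the marked area and held 116 UMIs, with 34 of *Myl4*, 23 of *Chrna1*, 21 of *Myh8*, 13 of *Myog*, 10 of *Mymk* and 10 of *Ncam1*. The remaining 3 were single spots of 10 UMIs each, and in one of them 9 of the 10 were *Ncam1*. On Day 7 the 8 genes were found together in 3 spots, all marked and all with *Actc1*, and 25 spots held 5 or more of them. On Day 14 a patch of 3 adjacent marked spots held 103 UMIs, 15.6% of the total, and 3 spots held 5 or more of the genes.

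Of the patch spots, 20 of 21 on Day 7 and 4 of 4 on Day 14 lay in the marked area. The median distance of these marked ones to the nearest unmarked spot was 6.40 pitches on Day 7, beside 2.65 for all marked spots, and 7.00 beside 3.46 on Day 14. Over all 21 patch spots the median distance from the spots richest in wound bed genes was 1 pitch on Day 7, with a range of 0 to 9.17. Other marked *Ckm* spots had a median of 4.58, and on Day 14 all 4 patch spots were at 0 beside 3.61. On Day 7 the *Ckm* level was lowest next to the wound bed, and 12 of the 21 patch spots passed the *Ckm* limit that all comparison spots had to pass. The part of this choice in the difference of distance was not tested. The Day 7 patches divided. The patch of 16 spots had a median of 1 pitch and a single spot was at 0, whereas the patch of 2 spots was at 6.06 and the other single spots were at 4.58 and 9.17. They were also deep, with a median of 15924 UMIs on Day 7 beside 6687 for marked spots and 10271 beside 4827 on Day 14. Whether depth alone brings a spot past a limit set in UMIs was not tested, and the levels that follow are per UMI.

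The 21 patch spots of Day 7 were set beside 453 marked *Ckm* spots outside the patches, with the members again as a description because they chose the spots. Of the 21, 12 passed the *Ckm* limit themselves and 9 did not, so a lower *Ckm* in the patches follows in part from the choice of spots. For that reason 2 further comparisons were added after the values were seen, of the 20 marked patch spots with all 529 other marked spots and of the 11 marked patch *Ckm* spots with the 453. By the call rule 8 of 9 members were higher, beside 2.30% of the 12627 genes tested. *Myl4* was at 1339 and 111 CPM, *Myh8* at 513 and 42.7 and *Myh3* at 68.3 and 4.37. *Actc1*, which had no part in the choice, was at 944 and 709 CPM (log2 ratio 0.41, 0.24 to 0.58) and was not called. In the added comparisons 8 of 9 members were again higher, beside 1.93% and 1.95% of all genes tested, and the *Actc1* ratio was 0.68 (0.51 to 0.86) and 0.99 (0.78 to 1.19).

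Genes outside the set were higher in the same spots. Of 17 tested genes of the myogenic programme 9 were higher and 0 lower. *Mymx* was at 104 and 6.05 CPM (35 and 18 UMIs), *Tnnt2* at 154 and 9.41, *Ankrd1* at 44.5 and 4.71 and *Csrp3* at 172 and 31.3. *Chrnd*, *Cdh15*, *Sln*, *Chrnb1* and *Itga7* were the others, with log2 ratios from 1.26 to 3.14. *Myf6*, a factor of mature fibres, had -1.01 (-2.67 to 0.26). The adult receptor subunit *Chrne* had 0 UMIs in the patch spots and 20 outside. Its interval reached up to 0.84 and held 0, so these counts do not separate the spots, and neither gene was called. Beside all other marked spots 10 of 17 were higher, and in the patch *Ckm* spots 6 of 16, among them *Tnnt2* (4.40, 3.61 to 5.20), *Ankrd1* and *Csrp3*. *Mymx* was not among these 6, as 2 of its 35 UMIs were in the 11 marked patch *Ckm* spots (1.13, -2.02 to 3.19).

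The slow-fibre list gave 4 of 5 tested genes higher: *Tnni1* (359 and 27.6 CPM), *Tnnc1* (234 and 21.9), *Casq2* (184 and 17.5) and *Tnnt1* (53.4 and 10.1). The defining slow myosin genes were at or near 0, *Myh7* with 0 and 2 UMIs and *Myl2* with 0 and 0. All marked spots of Day 7 together held 2 UMIs of *Myh7* and 0 of *Myl2*, so these genes cannot separate the patch from the rest. The slow troponins are also known from embryonic muscle. Which fibres their UMIs came from was not tested. Of the adult fast list 1 of 16 genes was higher, *Myh2* at 95 and 43.4 CPM, and the slow list gave 4 of 5 in both added comparisons. The fast list gave 1 of 16 beside all other marked spots. In the patch *Ckm* spots it gave 2 of 16, *Myh2* and *Myh1* (1.29, 1.13 to 1.45). *Ckm* and *Acta1* had log2 ratios of -0.77 and -0.27 beside the *Ckm* spots, where the *Ckm* value is set in part by the choice of spots. Beside all other marked spots they were -0.57 and -0.05, and between patch and other *Ckm* spots -0.32 and 0.23, so that the direction of *Acta1* turned.

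Lists of other cells moved with the patch as follows. Of the wound bed list 1 of 5 genes was higher (*Postn*, 5396 and 2638 CPM, but 0 of 5 in both added comparisons). Of the epidermis list 9 of 10 were lower, and 6 and 5 of 10 in the added comparisons. Macrophage genes gave 0 of 8, smooth muscle genes 0 of 8 higher and 1 lower, and nerve genes 1 of 8 higher, *Gap43* with 7 and 20 UMIs. The nerve list as a whole was at 154 and 163 CPM, although *Ncam1* itself was at 128 and 46.4. The part of these cells in the result was not tested.

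**Figure D5:**
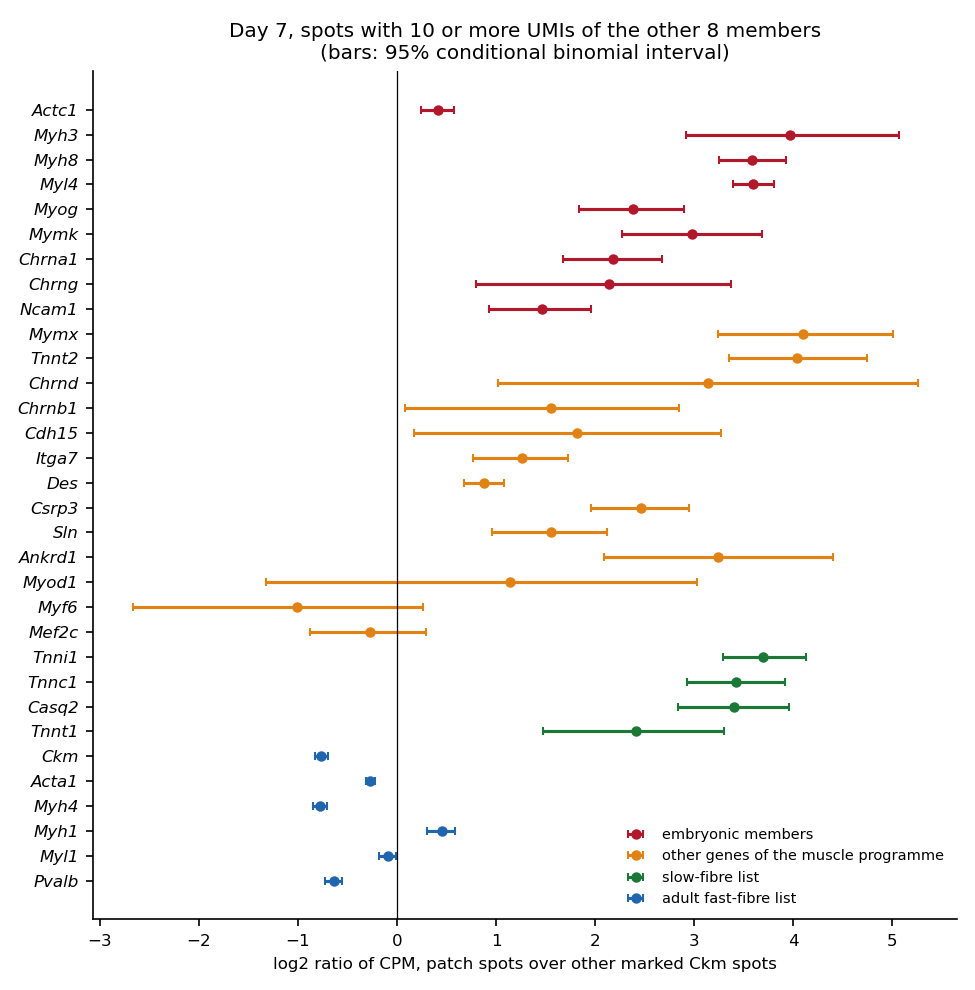
Log2 ratio of CPM in the 21 patch spots over the 453 marked *Ckm* spots of Day 7 outside the patches (horizontal axis) for the 9 members (red), other genes of the muscle programme (orange), slow-fibre genes (green) and adult fast-fibre genes (blue), with bars for the 95% conditional binomial interval. The spots were chosen by 8 of the members. *Mymx* and *Tnnt2*, which were not used, lie above 4 and *Actc1* at 0.41, and the *Ckm* value is set in part by the choice of *Ckm* spots for the comparison.

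Levels also differed with distance from the wound bed. In marked spots of Day 7 the other 8 were at 428 CPM within 2 pitches of the wound bed spots, at 509 from 2 to 5, at 367 from 5 to 10 and at 282 from 10 on. On Day 14 they were at 208 within 2 pitches, at 68.8 from 2 to 5 and at 54.7 from 5 to 10. *Actc1* was at 414, 802, 772 and 764 CPM on Day 7, lowest next to the wound bed, where *Ckm* was also lowest, and at 198, 186 and 169 on Day 14. Its Day 7 UMIs were 852, 927, 857 and 92. Relative to the *Ckm* UMIs of the same bins, given below, *Actc1* was not lowest next to the wound bed. By their intervals, the 8 genes on Day 7 were higher from 2 to 5 pitches (469 to 552) than within 2 (400.1 to 457) and than from 5 to 10 (333 to 405). In CPM the level thus had no single order with distance. The muscle in these bins differed, with *Ckm* at 5291, 10552, 12278 and 13643 CPM. The 8 genes had 880, 588, 408 and 34 UMIs beside 10880, 12189, 13631 and 1643 of *Ckm*. Relative to *Ckm*, the 8 genes were lower at each step away from the wound bed on Day 7. On Day 14 they were higher within 2 pitches (184 to 235) than from 2 to 5 (55.4 to 84.6). On Day 14 only 7 marked spots lay 10 or more pitches away, with 6 UMIs of *Actc1* and 1 of the 8.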

How the data were processed

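Spatial libraries of 3 skin wound sections, 1 each from Day 3, Day 7 and Day 14, were used, grouped by the time in the labels. The authors ran Space Ranger 1.3.0 on the reads, with build mm10 per the submitters' processing notes, to give UMI counts of each gene in each spot. The deposited counts are raw, for all 4992 spots of each slide, with position lists that mark spots under tissue. No spot was left out of the pooled levels, and neither doublets nor free RNA were removed, so RNA that moved across a slide stays in the values.

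From these counts, UMIs of a gene were summed over spots and divided by UMIs of all genes (CPM). Levels carry exact Poisson intervals, shares of spots exact binomial (Clopper-Pearson) intervals and ratios exact conditional binomial intervals, all at 95% and for counting error only, since PCR copies are removed by UMI but spots of 1 section are not replicates. No test between days was possible with 1 section per day, and no p-value is given. A call needed a 2-fold ratio, an interval without 1 and 10 UMIs. A floor of 3 UMIs in the area stood in for 0. *Ckm* spots had at least 5 *Ckm* UMIs per 1000 and 200 UMIs. Thinning was to 1000 UMIs with 1 fixed seed. Keratinocyte-rich and wound bed spots were the 10% of marked spots with the highest share of the epidermis list (*Krt5*, *Krt14* and 8 more) or the wound bed list. The interval and call steps were tested on simulated data. Alternatives covered the denominator, size factors of DESeq2 1.42.0 and edgeR 4.0.16 (TMM) on pooled counts, spot minimums, spot classes and patch spots.

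The members and the gene lists were chosen with earlier results of these data known. Named genes were the members, *Ckm*, their adult counterparts, up to 5 genes per list by UMIs on Day 7, any gene of the myogenic list and the 10 genes most like *Actc1*, as Pearson r of log1p UMIs per 10000. Other genes were named after their values were seen. Python 3.11.15, numpy 2.4.6, scipy 1.17.1, pandas 2.3.3, matplotlib 3.10.9 and R 4.3.3 were used. Gene positions are from GENCODE for GRCm38, the assembly of mm10, and promoters from RefSeq.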

Additional observations from a re-analysis of the deposited data

Results flagged for a closer look

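For *Myog* and *Chrna1*, among members with 10 or more UMIs on each day compared, the direction between areas differed by day. The log2 ratio of unmarked over marked spots for *Myog* was 0.47 on Day 3, but -1.08 and -1.59 on Days 7 and 14, and that for *Chrna1* was 0.19 and then -0.60 and -0.42. The Day 3 intervals (-0.57 to 1.54 and -1.18 to 1.59) held 0, as did that of *Chrna1* on Day 14 (-1.46 to 0.58), each day is 1 section, and no test was made of how the days differ. *Myh3* and *Myh8* also turned, each with 0.47 (-2.09 to 3.24) from 7 UMIs on Day 3, under that minimum, and -1.30 and -1.98 on Day 7.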

How the results depend on the processing

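No paired analysis was possible because each day has 1 section. Of 75 alternatives to 14 values, 38 kept the value within its counting interval (a count within 1.5 times), 34 moved it outside that interval in the same direction and 3 reversed it. The cause of each move was not tested. The *Actc1* log2 ratio of Day 7 over Day 3 (5.77) was 5.04 as a mean of spot CPM and 5.09 against *Ckm*. That of Day 14 over Day 7 (-1.75) was -1.88 with DESeq2 size factors, -1.88 with TMM factors and -1.50 with the mean of unmarked spots at least 20 pitches away subtracted. For the other 8 genes, Day 7 over Day 3 (3.25) was 2.60 as a mean of spot CPM, 2.58 against *Ckm*, 2.79 over the slide, 2.54 without patch spots and 3.74 without *Ncam1*, and Day 14 over Day 7 (-2.10) was -1.88 over the slide and -1.78 without patch spots. Members called higher numbered 7 to 9, with 7 without patch spots. Unmarked over marked *Actc1* on Day 7 (1.21) was 1.30 from 2 pitches outward and 0.20 against *Ckm*. *Actc1* in *Ckm* over other spots (2.20) was 0.74 and 1.79 with *Ckm* spots at 2 and 10 per 1000, 1.26 in marked spots and 2.03 at 20 per 1000 in spots of 1000 or more UMIs. The other 8 in *Actc1*-rich spots (0.08) were at 0.22 and -0.29 with *Ckm* spots at 2 and 10 per 1000, -0.41 at 20 per 1000 in spots of 1000 or more UMIs, 1.24 in marked spots, and 0.44 and 0.45 with 1 and 10 *Actc1* UMIs. The thinned share (63.0%) was 69.4% and 78.9% at 10 and 20 per 1000, and 44.9% and 80.1% at 500 and 2000 UMIs. *Acta1* in patch over other *Ckm* spots (-0.27) was 0.23 with patch *Ckm* spots alone. The alternatives at 20 per 1000, of patch comparisons, without patch spots and without *Ncam1* were chosen after seeing the data. Day 3 depth limits single genes, with 3 UMIs under tissue equal to 1.69 CPM.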
